A study of Mus musculus with 26 samples.

Results

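Inhibitory receptors, their PD-1 ligands and the ectonucleotidases of the adenosine pathway were examined in lung ILC2s. The 9 genes were Pdcd1, Ctla4, Lag3, Havcr2, Klrg1, Cd274, Pdcd1lg2, Nt5e and Entpd1, chosen by symbol for what they encode and taken by Ensembl identifier from 55401 genes in each table. ILC2s are innate lymphocytes of tissues such as the lung, where they make type 2 cytokines without needing an antigen receptor. RNA was sequenced from 26 libraries in 2 experiments. In the first, ILC2s of unchallenged female C57BL/6J mice (3 libraries) and CC030 mice (3 libraries) were sorted and lysed without culture. The mouse reference genome was built from C57BL/6J, whereas CC030 is one of the recombinant inbred lines of the Collaborative Cross. Each naive library came from a different mouse. In the second, ILC2s of 5 unchallenged CC030 mice were split between DMSO vehicle and AR420626 at 10 µM, an agonist of the free fatty acid receptor FFAR3, and harvested at day 2 or day 6, which gave 5 libraries per group. All 20 cultured libraries, vehicle included, received TSLP and IL-33, both at 10 ng/mL, together with IL-2 at 100 U/mL. Cells of the first experiment were sorted as CD90+ CD127+ CD25+ ICOS+ cells and those of the second as CD90+ CD127+ ST2+ cells, both after removal of lineage-positive cells, so the experiments differ in sort as well as in culture.

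PD-1 (Pdcd1) is a receptor of activated lymphocytes that recruits the phosphatase SHP-2 when it binds PD-L1 (Cd274) or PD-L2 (Pdcd1lg2). CTLA-4 (Ctla4) competes with CD28 for CD80 and CD86, LAG-3 (Lag3) binds MHC class II and other ligands, TIM-3 (Havcr2) binds galectin-9 among other ligands, and KLRG1 (Klrg1) is a lectin-like receptor for cadherins and a marker of mature and inflammatory ILC2s. The ectonucleotidases act in sequence outside the cell, where CD39 (Entpd1) breaks ATP and ADP down to AMP and CD73 (Nt5e) turns AMP into adenosine. PD-1 is known to restrain ILC2s, and PD-L1 and PD-L2 on ILC2s are known to engage PD-1 on T cells.

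On GRCm38 with the GENCODE vM21 annotation, the members lay on 5 chromosomes, and all 9 were protein-coding. Pdcd1 was at chr1:94038305-94052553 on the minus strand and Ctla4 at chr1:60887000-60915832 on the plus strand. Lag3 was at chr6:124904361-124911705 and Klrg1 at chr6:122270596-122282882, both on the minus strand. Havcr2 was at chr11:46454935-46481255 and Nt5e at chr9:88327197-88372092, both on the plus strand. Cd274 at chr19:29367455-29388095 and Pdcd1lg2 at chr19:29410919-29471161 were neighbours on the plus strand, and Entpd1 lay on the same chromosome at chr19:40612366-40741602.

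The libraries differed widely in depth. Counts in genes were 13533363 to 15234305 per naive C57BL/6J library, 1324595 to 1524751 per naive CC030 library and 227445 to 5320028 per cultured library. A count was present at 15946 to 16553 genes in C57BL/6J and at 43527 to 46111 genes in naive CC030. Of all reads listed in the table of cultured cells, 2.06% to 11.1% were in genes. At day 2, vehicle of mouse 5 and AR420626 of mice 4 and 5 stood apart, with a count at 32347, 19356 and 27775 genes against 42723 to 44975 in the other day 2 libraries. All 13 ILC2 markers, among them Gata3, Il1rl1 and Icos, were at 1 CPM per kb or more in every naive C57BL/6J library. Their summed level was 4309 to 6350 CPM per kb in C57BL/6J, 64.9 to 72.0 in naive CC030 and 14.8 to 137.8 in cultured CC030 cells. CPM is a gene's count per 1000000 counts of its library after TMM scaling, and CPM per kb divides them by the length of the gene's merged exons, so that genes can be compared with each other.

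In naive C57BL/6J ILC2s the members fell into 3 sets. Klrg1 and Pdcd1lg2 were abundant in every library, Pdcd1, Cd274 and Nt5e were lower but present in every library, and Ctla4, Entpd1, Havcr2 and Lag3 were at or near 0 in at least 2 of the 3 libraries. These levels are given as descriptions with no test.

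Klrg1 was the most abundant member. Its counts in libraries 1, 2 and 3 were 2921, 3437 and 7032, which are 163, 179 and 287 CPM per kb, with a mean of 209.8 ± 67.0 (SD, n = 3). The highest library exceeded the lowest by 1.75 times, whereas the median ratio over 10787 genes with a mean of at least 50 counts was 3.04, the latter taken after adding 0.2 CPM to both. Klrg1 thus stood higher than 97.6% of the 14119 protein-coding genes with a count in these libraries.

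Pdcd1lg2, which encodes PD-L2, came next with 2350, 3046 and 1745 counts. These are 94.8, 114.7 and 51.3 CPM per kb, with a mean of 86.9 ± 32.4 (SD, n = 3), above 94.7% of protein-coding genes with a count. All 3 Klrg1 levels lay above all 3 Pdcd1lg2 levels, and all Pdcd1lg2 levels lay above all Pdcd1 levels, although the gap to Pdcd1 was narrow at 51.3 against 50.5. From Pdcd1 downward, the range of each member overlapped that of its lower neighbour, so the order among them is not fixed by these 3 libraries.

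Cd274, which encodes PD-L1 and lies next to Pdcd1lg2, was much lower than its neighbour. It had 120, 286 and 67 counts, or 2.62, 5.83 and 1.07 CPM per kb, with a mean of 3.17 ± 2.43 (SD, n = 3). Library 2 was highest and library 3 lowest for both PD-1 ligands.

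Pdcd1 was uneven. Its counts were 217, 61 and 1692, or 8.89, 2.33 and 50.5 CPM per kb, with a mean of 20.6 ± 26.1 (SD, n = 3). Library 3 held by far the most, and the highest library exceeded the lowest by 21.7 times. Without library 3 the mean was 5.61.

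Nt5e was the steadiest member. It had 302, 348 and 445 counts, or 2.78, 2.99 and 2.98 CPM per kb, with a mean of 2.91 ± 0.12 (SD, n = 3). Its highest library exceeded the lowest by 1.08 times, a ratio as small or smaller in 0.482% of the 10787 genes. Its level depends on the length used, since with the longest transcript in place of merged exons it was 6.28 ± 0.26 (SD, n = 3), above the mean of Cd274. TMM over all 6 naive libraries gave 4.55 for Nt5e, and raised Klrg1 to 327.2 and Pdcd1lg2 to 135.8.

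Entpd1, whose product acts before that of Nt5e, was found almost only in library 3. It had 1, 0 and 145 counts, or 0.0142, 0 and 1.498 CPM per kb. Ctla4 was found only in library 1, with 161, 0 and 0 counts, or 5.46 CPM per kb in library 1. The floor of 3 counts is 0.222 CPM in library 2 and 0.173 CPM in library 3, before division by length. Floors and intervals here cover counting error only.

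Havcr2 had 0, 2 and 0 counts, and Lag3 had 0 in all 3 libraries. A count of 0 allows up to 0.173 to 0.237 CPM per library, so that RNA of Lag3 was not detectable at this depth.

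Markers of other cells varied between the same libraries. The 5 regulatory T cell markers summed to 88.8, 30.2 and 8.23 CPM per kb in libraries 1, 2 and 3. Foxp3, the lineage factor of these cells, had 238, 9 and 136 counts, Cd4 had 91, 1 and 0, and Trac had 786, 210 and 1. Cd3e had 191, 86 and 35 counts, whereas Ikzf2 had 1871, 1873 and 1202 and so was not highest in library 1. Trac, a gene of T cells in general, made up most of the sum in library 1, at 66.5 CPM per kb. Ctla4 and Tigit, with 106 counts, were both found in library 1 alone, the library with the highest sum of that list. The other T cell markers summed to 232, 241 and 86.9 CPM per kb. Cd3g made up most of this, at 176, 239 and 86.2 CPM per kb. Cd3d had 1270, 57 and 23 counts and so was highest in library 1, and Cd6 had 1, 0 and 0. Cd8a and Cd8b1 were at 0 in all 3 libraries.

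The 8 epithelial, endothelial and stromal markers summed to 22.7, 16.1 and 9624 CPM per kb. Sftpc, the surfactant protein of alveolar type 2 cells, had 1, 4 and 172153 counts. The 10 macrophage, neutrophil and dendritic cell markers summed to 2.94, 12.1 and 660.0 CPM per kb, with Lyz2 at 1, 167 and 14729 counts and Itgam, S100a8, Flt3 and Clec9a at 0 throughout. These 2 genes made up nearly all of both sums in library 3. Other genes of the lists went both ways. Also highest in library 3 were Krt18 with 0, 0 and 99 counts, Cdh5 with 0, 0 and 57, and Pecam1 with 51, 160 and 347. So were Cd68 with 0, 0 and 268 counts, Zbtb46 with 1, 0 and 108, and Csf1r with 0, 16 and 52. Not highest there were Epcam at 21.5, 13.9 and 20.8, Xcr1 at 2.84, 2.55 and 1.46, and Col3a1 at 0.499, 0.00752 and 0 CPM per kb. Library 3 was also the one with the most Pdcd1 and Entpd1. The 4 B cell markers summed to 7.45, 21.9 and 46.0 CPM per kb, and the 7 mast cell, basophil and eosinophil markers to 304, 473 and 121, with 5 of the 7 at 0. All 6 NK cell and ILC1 markers were at 0. The part of other cells in the levels of Ctla4, Pdcd1 and Entpd1 was not tested. In bulk RNA, fewer cells of a type and less RNA per cell cannot be told apart.

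**Figure D1:**
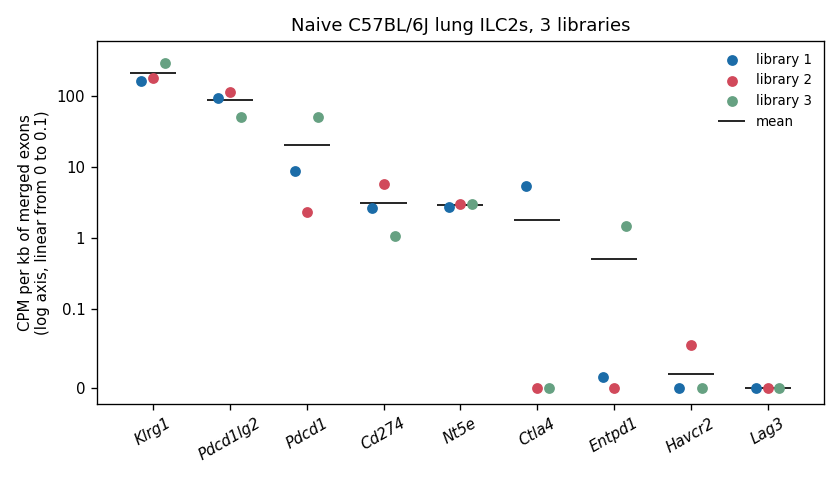
Levels of the 9 members in the 3 naive C57BL/6J libraries, in CPM per kb of merged exons on a log axis that is linear from 0 to 0.1; points are libraries and lines are means. Klrg1 and Pdcd1lg2 lie at the top in every library, Nt5e points lie together at 2.78 to 2.99, and Ctla4 and Entpd1 each rest on 1 library.

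The ligands and partners of these receptors gave a mixed picture in C57BL/6J. Of 15 genes for ligands and counter-receptors, 3 were at 1 CPM per kb or more in every library, and their median was 0.20 CPM per kb. The 3 were Lgals9, which encodes the TIM-3 ligand galectin-9, at 144.7 ± 90.2 (SD, n = 3), the LAG-3 ligand gene Lgals3 at 30.7 ± 8.44 (SD, n = 3), and Hmgb1 at 24.3 ± 0.98 (SD, n = 3). Cd80, a CTLA-4 ligand gene, was at 0 in all 3 libraries, and Cd86 had 2, 0 and 0 counts. The MHC class II gene H2-Ab1 had 0, 0 and 3538 counts, again in library 3 alone.

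Among 17 other inhibitory receptors in the table, 4 reached 1 CPM per kb in every library. Cd200r1, the receptor for CD200, was at 82.9 ± 11.1 (SD, n = 3) CPM per kb and Cd96 at 63.4 ± 28.7 (SD, n = 3), both near the level of Pdcd1lg2. The other 2 were Cd101 at 3.80 ± 1.35 (SD, n = 3) and Lilrb4a at 2.48 ± 1.22 (SD, n = 3). Btla, Klrc1, Cd5 and Cd300lf were at 0 in all 3 libraries.

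Of 18 signalling and protein partners, 12 reached that level in every library. Ptpn11, which encodes SHP-2, was at 1.67 ± 0.28 (SD, n = 3) CPM per kb, and Cmtm6, whose product keeps PD-L1 at the cell surface, was at 22.3 ± 7.46 (SD, n = 3). Of 19 transcription factors tied to inhibitory receptor programs, 15 did so. Nr4a1 at 93.8 ± 63.9 (SD, n = 3) and Batf at 63.4 ± 4.22 (SD, n = 3) were the highest of them.

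Of 28 genes of the purinergic and adenosine pathway, 8 reached 1 CPM per kb in every library and 9 were at 0 in all 3. Genes that receive or clear adenosine were present in part, with the adenosine receptor gene Adora2a at 3.21 ± 1.68 (SD, n = 3), the adenosine kinase gene Adk at 3.53 ± 1.93 (SD, n = 3) and the transporter gene Slc29a1 at 9.24 ± 8.81 (SD, n = 3) CPM per kb. Of the other adenosine receptor genes, Adora1 and Adora3 were at 0 in all 3 libraries and Adora2b had 4, 0 and 98 counts. The transporter gene Slc28a2 had 79, 0 and 0 counts. Ada, which encodes adenosine deaminase, was at 30.8, 0.922 and 32.1 CPM per kb in libraries 1, 2 and 3. Of other genes for nucleotide-cleaving enzymes, Entpd2, Entpd3, Enpp1 and Enpp3 were at 0 in all 3 libraries, whereas Entpd5 was at 2.89 ± 0.20 (SD, n = 3). Cd38, also on this list, was at 26.6, 4.61 and 14.6 CPM per kb in libraries 1, 2 and 3.

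The strains were compared to ask how naive ILC2s of CC030 differ from those of C57BL/6J. Under the symbols Klrg1, Pdcd1lg2 and Pdcd1 the CC030 libraries held fewer normalized counts, and under Lag3 and Havcr2 they held more. Each strain was aligned to its own reference, and genes in CC030 were counted after conversion of mm9-based alignments to mm10 coordinates, so a difference between strains and a difference between these procedures cannot be told apart. With edgeR's quasi-likelihood test and Benjamini-Hochberg adjustment at 0.05, used for all adjusted p below, 3 of the 9 members were lower in CC030 and 2 were higher. Of all 35551 genes tested, 12.2% were called lower and 64.1% higher. The median log2 fold change, CC030 over C57BL/6J, was 0.01 over the members and 7.03 over all genes tested.

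Klrg1 fell from 231, 254 and 405 CPM in C57BL/6J to 4.48, 1.35 and 6.56 CPM in CC030, where it had 6, 2 and 10 counts. Its log2 fold change was -7.34 (SE 0.66, adjusted p = 0.00046). Pdcd1lg2 fell from 186, 225 and 101 CPM to 10.5, 8.75 and 9.84 CPM, a log2 fold change of -5.33 (SE 0.49, adjusted p = 0.00046). For both genes the groups did not overlap and all 3 CC030 libraries were lower.

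Pdcd1 was at 17.2, 4.50 and 97.5 CPM in C57BL/6J and at 14.9, 3.36 and 13.1 CPM in CC030, with 20, 5 and 20 counts. The groups overlapped, and the log2 fold change was -3.10 (SE 1.18, adjusted p = 0.042). The call ended when C57BL/6J library 3 was left out, with a log2 fold change of -1.62 (adjusted p = 0.095), and when CC030 library 1, 2 or 3 was left out, with adjusted p of 0.082, 0.13 and 0.11. It also ended with DESeq2's size factors in edgeR, at -2.37 (adjusted p = 0.080).

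Lag3 was at 19.4, 21.5 and 23.6 CPM in CC030, against 0 in every C57BL/6J library. Held at 3 counts per C57BL/6J library, and scaled over all 6 naive libraries, it was at least 42.0-fold higher in CC030 (adjusted p = 0.00046). Havcr2 was at 11.2, 12.1 and 5.91 CPM in CC030, from 42 counts against 2 in C57BL/6J. Their ratio was 86.4, with an exact 95% interval for counting error of 22.5 to 737 (adjusted p = 0.00086). Against all genes tested, the fitted fold change of Havcr2 stood at the 44.7th percentile and that of Lag3 at the 88.8th. In these CC030 libraries 3 counts stand for 1.97 to 2.24 CPM. Per kb, the mean of Lag3 in CC030 was 10.2 CPM, second to Entpd1 among the members at 13.3, and that of Havcr2 was 3.58. Markers of other cells with 0 counts in every C57BL/6J library lay on both sides of Lag3 in naive CC030. Prg2 was at 16.7, Flt3 at 15.4 and Gzma at 11.3 CPM per kb, and Cd8a at 7.82, Klrb1c at 3.15 and Ncr1 at 1.35. The level of Lag3 is thus not set apart from that of such genes.

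The remaining 4 members did not pass the test. Cd274 had 20.9, 18.8 and 9.84 CPM in CC030 and 9.49, 21.1 and 3.86 in C57BL/6J (log2 fold change -0.68, SE 0.79, adjusted p = 0.46). Nt5e had 48.6, 41.0 and 84.0 CPM in CC030 and 23.9, 25.7 and 25.7 in C57BL/6J (log2 fold change 0.01, SE 0.47, adjusted p = 0.98), with the strains normalized together in the fit and apart for the levels. Ctla4 had 24.7, 7.40 and 17.1 CPM in CC030 (log2 fold change 0.76, SE 1.95, adjusted p = 0.74), and Entpd1 had 79.2, 74.0 and 69.6 (log2 fold change 3.54, SE 1.76, adjusted p = 0.10).

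For the latter pair, 1 C57BL/6J library decided the outcome. Without library 1, which alone held Ctla4, this gene was called higher in CC030 (adjusted p = 0.0011), and without library 3, which held nearly all Entpd1, that gene was called higher (adjusted p = 0.00031). Library 1 had the highest sum of regulatory T cell markers, and library 3 had the most Sftpc and Lyz2.

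**Figure D2:**
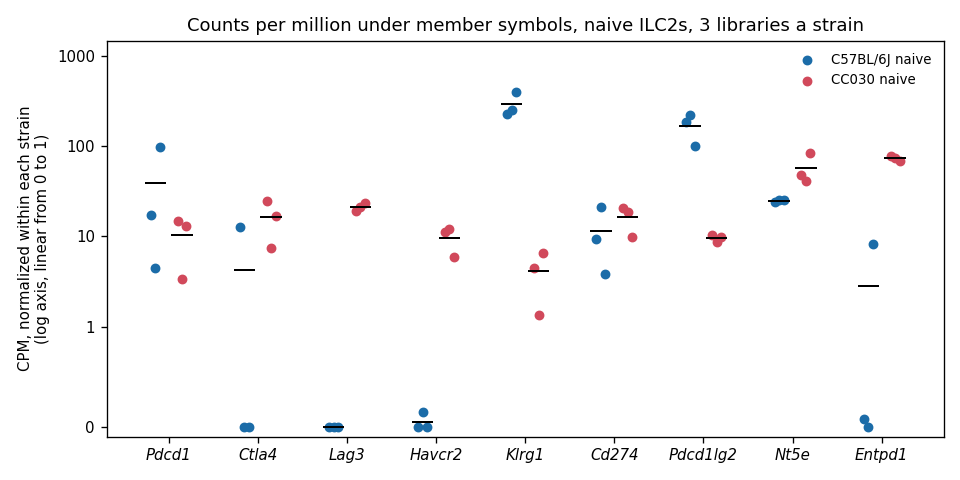
CPM under each member symbol in naive C57BL/6J and naive CC030 ILC2s, scaled within each strain, on a log axis that is linear from 0 to 1; points are libraries (3 a strain) and lines are means. Klrg1 and Pdcd1lg2 are at 100.6 CPM or more in every C57BL/6J library and at 10.5 or less in every CC030 library, and Lag3 is at 0 in C57BL/6J.

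The related lists differed in direction between the strains. Of 13 ILC2 markers, 13 were lower in CC030, with a median log2 fold change of -5.88, and Cxcr6, Id2, Icos and Il5 had the smallest p. Of 15 tested ligands and counter-receptors, 7 were higher and 3 lower (median 3.27), with Cd80, Cdh4 and Fgl1 higher and Hmgb1 lower (log2 fold change -2.36, SE 0.34, adjusted p = 0.00047). Of 15 tested other inhibitory receptors, 4 were higher, Btla, Cd300lf and Cd5 among them, and 2 were lower, with Cd200r1 at a log2 fold change of -5.61 (SE 0.57, adjusted p = 0.00046). Of 18 signalling and protein partners, 3 were higher, with Cmtm4 first, and 6 lower, with Cmtm6 at -2.99, Fyn at -2.64 and Csk at -1.82 (median of the list -0.15).

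Of 27 tested purinergic genes, 10 were higher, with Enpp1, Adora1, Entpd3 and Alpl first, and 2 were lower (median 1.02). Of 19 transcription factors, 2 were higher and 6 lower, with Nr4a1 at -5.07, Batf at -4.16, Maf at -3.18 and Irf2 at -2.66 (median -0.70). All of these medians lay below the 7.03 of all genes. Markers of other cells moved in both directions. Of the NK cell and ILC1 markers, 5 of 5 tested were called higher, as were 5 of 9 macrophage, neutrophil and dendritic cell markers, with 0 lower in either list. Over all 35551 genes tested, 64.1% were called higher and 12.2% lower. The granulocyte list had 4 higher and 2 lower of 6, the epithelial list 2 and 2 of 8, the T cell list 2 and 1 of 4, and the B cell list 0 and 1 of 4. None of 5 regulatory T cell markers was called by edgeR, with 0 at an unadjusted p under 0.05 and 0 called by DESeq2. Their part in the members' values was not tested.

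Since the CC030 reads were aligned on mm9 and those of C57BL/6J on mm10, gene positions around each member were examined. For every gene within 4 Mb, the level in CC030 was correlated across genes with the mean C57BL/6J level of whatever exons lay at its position plus an offset of up to 3 Mb. Genes are not independent replicates, so these correlations are descriptions. For C57BL/6J libraries against each other the best offset was 0 kb at every member. The form planned first, on naive CC030 libraries, found no clear offset at any member, with r of at most 0.37 within 4 Mb. The mean of the vehicle day 6 libraries, a choice made after the data had been seen, gave higher values.

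In vehicle day 6 cells the best offset was not 0 for any member. For Cd274 and Pdcd1lg2 it was -73.8 kb (r = 0.66 and 0.65), and for Entpd1 on the same chromosome -73.5 kb (r = 0.64). For Lag3 and Klrg1 on chromosome 6 it was 49.9 and 50 kb (r = 0.56 and 0.54). For Ctla4 it was -56.8 kb (r = 0.70), for Havcr2 185.4 kb (r = 0.74) and for Pdcd1 -1896 kb (r = 0.61). With no offset, r for these 8 members was -0.16 to 0.20, and at the next best offset more than 50 kb away it was 0.27 to 0.54. Windows of 8 Mb gave offsets within 2 kb of these. Nt5e gave no stable offset, with 2176 kb (r = 0.36) in the smaller window and 75.1 kb (r = 0.31) in the larger one.

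Tigit, an inhibitory receptor gene on chromosome 16 that is not a member, was examined in the same way as a comparison. Its best offset was -0.2 kb (r = 0.72), and r with no offset was 0.70. Moved by that offset, Tigit lay on its own exons over 298 bases, 32.4% of its exonic length. In the form planned first, on naive CC030 libraries, Tigit had r of 0.09 with no offset and a best r of 0.63 at -1028 kb, so that form did not place it at 0 either. The AR420626 day 6 libraries gave r of 0.38 to 0.53 at the Cd274 offset, whereas the naive CC030 libraries gave -0.05 to 0.04.

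**Figure D3:**
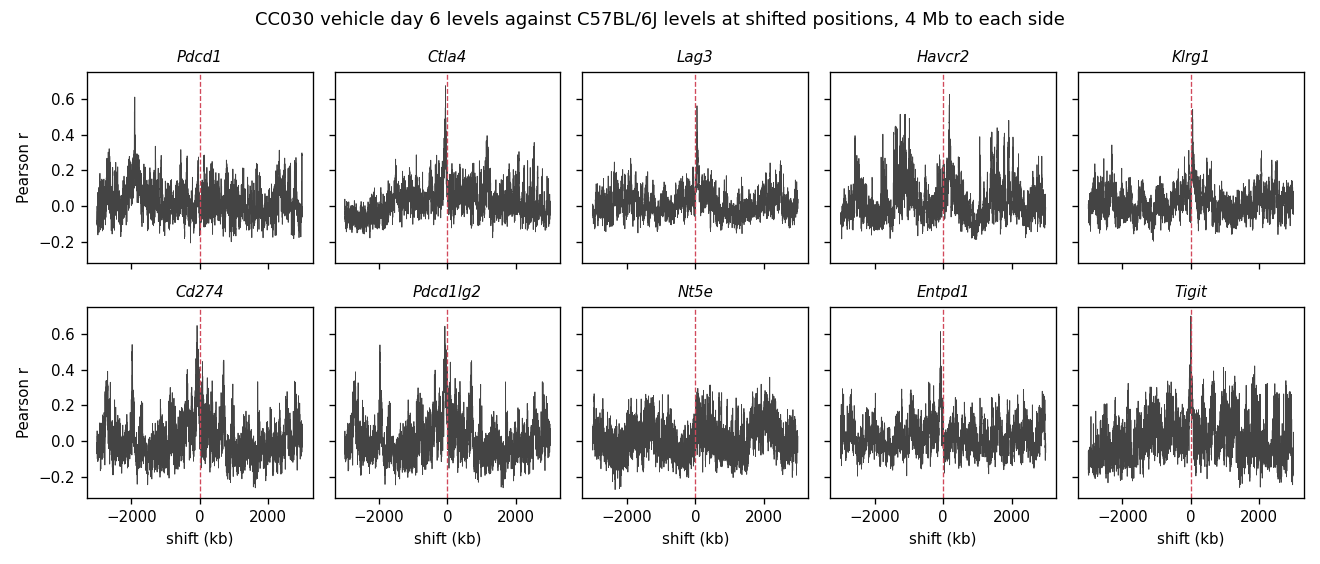
Pearson's r across genes within 4 Mb of each member, and of Tigit, between the mean vehicle day 6 level and the C57BL/6J level at positions offset by up to 3 Mb on either side in 1 kb steps (x axis); the dashed line marks no offset. The highest points stand close beside the dashed line at 7 of the 9 members, at -1896 kb at Pdcd1 and on the line at Tigit, while Nt5e has no distinct maximum.

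The genes at the offset positions put names to this. Moved by its offset, Cd274 lay on exons of Jak2 over 1406 bases, 38.8% of its exonic length. Jak2 encodes the kinase of many cytokine receptors, and had 2171, 1918 and 1400 counts in naive C57BL/6J. Lag3 lay on Cops7a over 784 bases (37.2%), and Klrg1 on Phc1 over 213 bases (15.1%). The other members met no exon over more than 6.94% of their length within the 4 Mb windows.

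In the opposite direction, the exons of Klrg1 in C57BL/6J fell on the pseudogene Mug-ps1 in CC030 coordinates over 265 bases (18.7%), and those of Lag3 fell on Gpr162 over 1335 bases (63.3%) and on P3h3 over 282 bases (13.4%). The shared bases were 5.12% of the exons of Mug-ps1, 34.8% of those of Gpr162 and 7.18% of those of P3h3. At the same offset, exons of Gpr162 also met those of Ptms over 203 bases (5.29%). Ptms had 18 to 295 counts in naive C57BL/6J. Mug-ps1 had 0 counts in all 3 naive C57BL/6J libraries, 54, 156 and 141 in naive CC030 and 760 to 2176 in vehicle day 6. Gpr162 had 0, 1 and 0 counts in C57BL/6J and 157 to 350 in vehicle day 6. The values of CC030 libraries below are those under each symbol, and which transcript the reads came from was not tested.

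In cultured CC030 cells Cd274 was the only member with at least 10 counts in all 20 libraries. At day 6 it was also the highest by CPM per kb in every library. Lag3 had the next highest mean CPM per kb in all 4 groups, after Cd274. At day 2 these means rested largely on mouse 5. The day 2 medians of Cd274 and Lag3 were 12.9 and 13.4 CPM with vehicle and 11.6 and 7.96 CPM with AR420626. These are before division by exonic lengths of 3622 bases for Cd274 and 2109 for Lag3. The order by means was thus not that of every mouse at day 2. Pdcd1, Ctla4, Havcr2, Klrg1, Pdcd1lg2 and Entpd1 reached at most 28.4 CPM in any cultured library, except for Pdcd1 in vehicle day 2 of mouse 5 at 103.9 CPM.

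AR420626 was set against vehicle at day 6 to ask what the FFAR3 agonist alters in activated ILC2s. CPM under Cd274 were lower with AR420626 in 5 of 5 mice. Of the 9 members, 3 had enough counts to be tested, and 1 of them, Cd274, was called lower, against 8.14% called lower among all 9421 genes tested. The median log2 fold change of the 3 was -0.78, against 0.10 over all genes. The study's cells of each mouse were split between the arms, and mouse was a block in this and the later fits.

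Cd274 stood at 1134, 809, 483, 3071 and 840.1 CPM in vehicle cells of mice 1 to 5 and at 386, 285, 415, 420.3 and 276.5 CPM in their AR420626 cells. The 2 groups did not overlap, and vehicle varied more, with mouse 4 high. The log2 fold change was -1.16 (SE 0.25, adjusted p = 0.0017). Within mice, AR420626 over vehicle was 0.14 in mouse 4, 0.33 to 0.35 in mice 1, 2 and 5 and 0.86 in mouse 3. The exact two-sided permutation of the signs of these 5 differences gave p = 0.063, the smallest that 5 pairs allow. Without mouse 4 the log2 fold change was -0.96 (adjusted p = 0.015). As given above, 38.8% of the exonic length of Cd274 lay on Jak2 at the offset position.

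Lag3 was at 87.4, 50.7, 33.0, 201 and 54.3 CPM with vehicle and 30.9, 42.4, 17.9, 45.1 and 25.0 CPM with AR420626. Each mouse had less with AR420626, but the groups overlapped, and the log2 fold change of -0.78 (SE 0.29) did not pass the test (adjusted p = 0.081). It passed when mouse 2 was left out (log2 fold change -1.05, adjusted p = 0.046). The exact permutation of signs gave p = 0.063.

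Nt5e was at 81.7, 51.6, 69.2, 160.4 and 72.7 CPM with vehicle and 73.6, 57.7, 54.9, 19.5 and 30.3 CPM with AR420626. The groups overlapped, 4 of 5 mice had less with AR420626, and the log2 fold change was -0.48 (SE 0.31, adjusted p = 0.33). Mouse 4 was highest with vehicle and lowest with AR420626.

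The 6 members below the filter had few counts. Across the 10 libraries of day 6, Pdcd1 had 0 to 12 counts, Ctla4 0 to 14, Havcr2 0 to 7, Klrg1 1 to 13, Pdcd1lg2 0 to 15 and Entpd1 5 to 21. Ctla4 was higher with AR420626 in 5 of 5 mice, at a mean of 3.56 CPM with vehicle and 8.65 CPM with AR420626, but the groups overlapped and 3 counts stood for 1.99 to 3.83 CPM in these libraries (exact permutation of signs, p = 0.063). Over the members below the filter this was the only one with the same direction in all 5 mice.

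**Figure D4:**
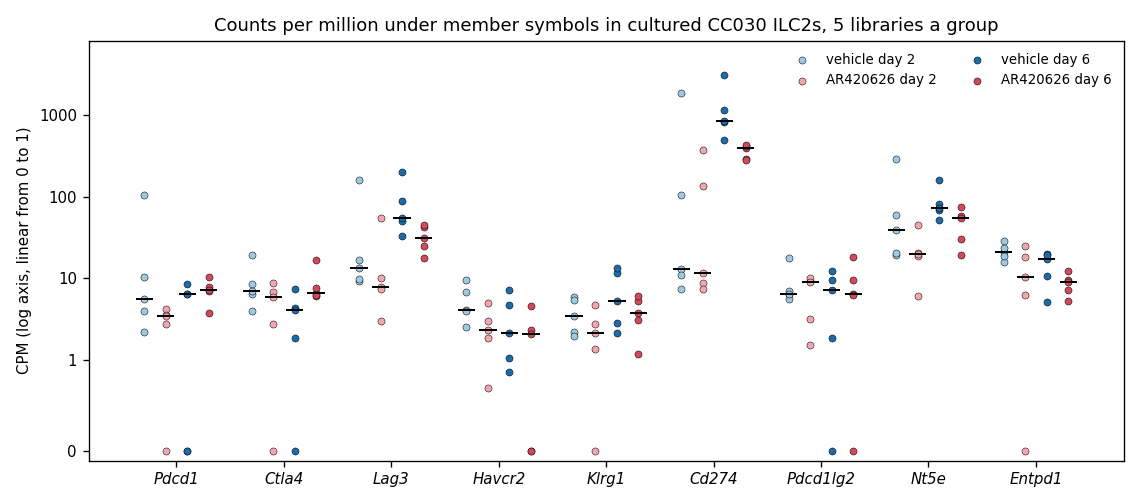
CPM under each member symbol in the 4 cultured groups of CC030 ILC2s, on a log axis that is linear from 0 to 1; points are 5 libraries a group and lines are medians. Cd274 is at 276.5 CPM or more in every day 6 library, and Pdcd1, Ctla4, Havcr2, Klrg1, Pdcd1lg2 and Entpd1 lie at 0 to 19.95 CPM at day 6.

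Genes related to the members moved apart at day 6. Of 8 tested other inhibitory receptors, 2 were called higher with AR420626 and 0 lower (median log2 fold change 0.78). Tigit, which encodes a receptor for CD155, was at 24.7, 19.2, 5.32, 36.4 and 15.4 CPM with vehicle and at 494, 142, 504, 276 and 310 CPM with AR420626 (log2 fold change 4.45, SE 0.33, adjusted p = 7.8e-11), and the groups did not overlap. Tigit lies where the best offset was -0.2 kb, at which 32.4% of its exonic length lay on its own exons. Pilra, an inhibitory receptor of myeloid cells, had a log2 fold change of 2.61 (SE 0.46, adjusted p = 0.00022).

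Of 11 tested signalling and protein partners, 2 were lower, namely Bag6, whose product binds the tail of TIM-3 (log2 fold change -1.33, SE 0.29, adjusted p = 0.0019), and Ap2m1, a clathrin adaptor subunit involved in CTLA-4 uptake (-0.78, SE 0.23, adjusted p = 0.022). Of 12 tested purinergic genes, 1 was lower, Enpp1, which encodes an enzyme that turns ATP into AMP (-0.91, SE 0.25, adjusted p = 0.015). None of 6 ligands and counter-receptors and none of 10 transcription factors passed by edgeR or DESeq2, and 1 of each list had an unadjusted p under 0.05. Among markers, Gata3 was lower, as 1 of 5 tested ILC2 markers (-1.57, SE 0.33, adjusted p = 0.0015), and so was Zbtb46, as 1 of 4 tested macrophage, neutrophil and dendritic cell markers. The T cell, NK cell, B cell, granulocyte and epithelial lists had 1 to 5 tested genes each and none that passed by edgeR. DESeq2 called 1 gene of the T cell list, and 1 gene of that list and 1 of the epithelial list had an unadjusted p under 0.05.

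Of 14 genes at offset positions tested at day 6, 5 were called, namely Mug-ps1, Gpr162, P3h3, Plgrkt and Cyfip2, and 9 were not. Genes at offset positions were taken from both the 4 Mb and the 8 Mb windows. Among all 9421 genes tested, 311 were called higher and 767 lower. Mug-ps1 was at 1116, 872, 809, 2327 and 1051 CPM with vehicle and 132, 98.8, 119, 163 and 86.6 CPM with AR420626 (log2 fold change -2.89, SE 0.24, adjusted p = 5.8e-10). Every AR420626 library was lower than every vehicle library. Klrg1 itself, whose exons fall on this pseudogene at the offset, had 1 to 13 counts and was not tested. Gpr162 and P3h3, on which Lag3 falls, were higher with AR420626, with log2 fold changes of 0.75 (SE 0.23, adjusted p = 0.033) and 4.11 (SE 0.50, adjusted p = 8.0e-07), in 3 and 5 of 5 mice, whereas CPM under Lag3 were lower in each mouse. P3h3 was also called in the test of AR420626 between the days (3.93, SE 0.81, adjusted p = 0.044). Cops7a, on which 37.2% of Lag3 lay, and Phc1, on which 15.1% of Klrg1 lay, did not pass, at -0.93 (SE 0.65, adjusted p = 0.37) and 1.15 (SE 0.59, adjusted p = 0.22). Jak2 had 0 to 45 counts under its own symbol at day 6 (log2 fold change 1.37, SE 0.63, adjusted p = 0.16). Plgrkt, on which 2.04% of Pdcd1lg2 lay, and Cyfip2, on which 1.47% of Havcr2 fell, were lower with AR420626, at -1.08 (SE 0.29, adjusted p = 0.014) and -0.89 (SE 0.24, adjusted p = 0.015).

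**Figure D5:**
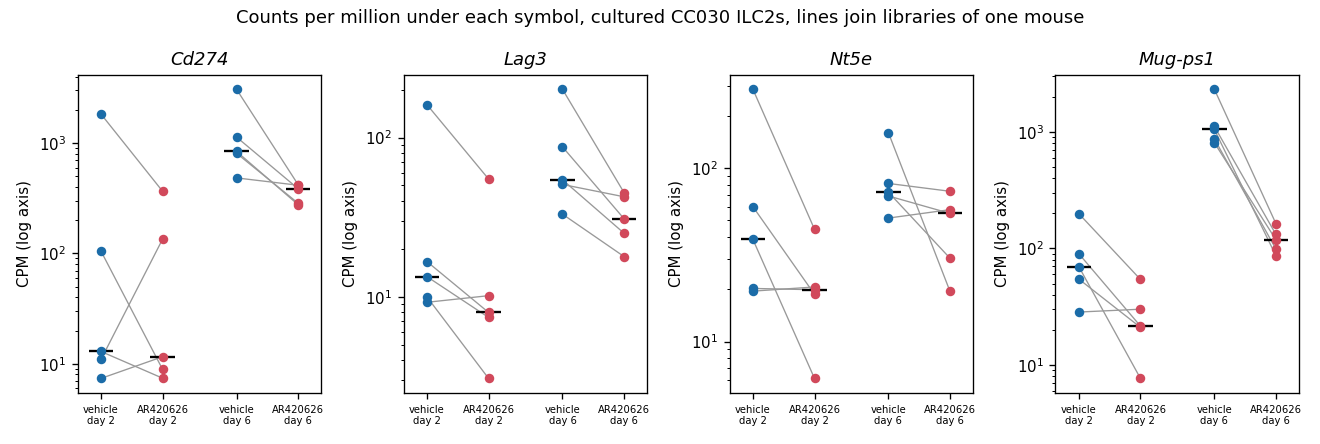
CPM under Cd274, Lag3, Nt5e and the pseudogene Mug-ps1 with vehicle (blue) and AR420626 (red) at day 2 and day 6, on log axes; grey lines join libraries of 1 mouse and black bars are medians of 5 libraries. Lines for Cd274, Lag3 and Mug-ps1 all slope down at day 6, and at day 2 those of Cd274 cross.

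At day 2, AR420626 was compared with vehicle in the same way. None of 6 tested members was called by edgeR, as was the case for 0% of all 20865 genes tested, of which 403 had an unadjusted p under 0.05. None of the 6 had an unadjusted p under 0.05. DESeq2 called 15 genes and 0 members. The median log2 fold change of the 6 members was -0.85, against -0.22 over all genes.

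Cd274 at day 2 depended on the mouse. It was at 105, 7.37, 12.9, 10.95 and 1829 CPM with vehicle and 8.90, 11.6, 7.40, 135 and 365 CPM with AR420626, lower in 3 of 5 mice (log2 fold change -0.64, SE 1.27, adjusted p = 1). Mouse 5, whose vehicle library stood apart, held the highest value in both arms. Nt5e was at 60.0, 19.5, 20.3, 38.8 and 285.6 CPM with vehicle and 18.7, 20.6, 19.9, 6.13 and 44.5 CPM with AR420626 (log2 fold change -1.29, SE 0.62, adjusted p = 1). Lag3 was at 16.6, 9.22, 13.4, 9.96 and 161 CPM with vehicle and 7.96, 10.1, 7.40, 3.06 and 54.9 CPM with AR420626 (log2 fold change -0.90, SE 0.47, adjusted p = 1), and here too mouse 5 was highest. Entpd1 (-1.08, SE 0.59), Ctla4 (-0.80, SE 0.69) and Pdcd1lg2 (-0.32, SE 0.60) did not pass either. Klrg1, with 0 to 13 counts and not tested by edgeR, was lower with AR420626 in 5 of 5 mice (exact permutation of signs, p = 0.063). The groups overlapped, and in mouse 2 Klrg1 was at 2.21 CPM with vehicle and 2.17 CPM with AR420626. In the AR420626 libraries 3 counts stood for 1.09 to 4.60 CPM, so this direction rests on values near that floor. In none of the lists of related genes and markers did a gene pass at day 2 by edgeR or DESeq2 or reach an unadjusted p under 0.05. Of 17 genes at offset positions tested at day 2, the members Pdcd1lg2 and Entpd1 among them, 0 were called by edgeR. Mug-ps1 was lower with AR420626 in 4 of 5 mice (log2 fold change -1.58, SE 0.59, edgeR unadjusted p = 0.020).

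Whether the effect of AR420626 differed between the days was tested directly over all 20 cultured libraries. None of 7 tested members was called by edgeR, against 0.0519% of 23141 genes, and 1233 of these genes had an unadjusted p under 0.05. Of the 7 members, 2 had such a p. DESeq2 called 75 genes and 0 members. For Cd274 the difference, day 6 minus day 2, was -0.35 on the log2 scale (SE 1.47, adjusted p = 0.99), and for Lag3 it was -0.35 (SE 0.83, adjusted p = 0.99). Pdcd1 (2.73, SE 1.23, adjusted p = 0.92) and Ctla4 (2.29, SE 1.06, adjusted p = 0.93) had the highest values, from libraries with 0 to 104 and 0 to 45 counts. The Cd274 call at day 6 is therefore not shown to be absent at day 2.

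Vehicle cells at day 6 were set against vehicle cells at day 2 to follow the members during culture with cytokines. Of 6 tested members, 1 was called higher, Cd274, against 13.6% called higher among all 15819 genes. The median log2 fold change of the 6 was 0.02, against -0.33 over all genes. Cd274 was higher at day 6 in 4 of 5 mice, from 7.37 to 105 CPM at day 2 to 483 to 3071 CPM at day 6, whereas in mouse 5 it went from 1829 to 840.1 CPM. The log2 fold change was 4.83 (SE 1.54, adjusted p = 0.037). The call ended when mouse 1, 2, 3 or 4 was left out (adjusted p = 0.097, 0.14, 0.14 and 0.20) and without the mouse block (log2 fold change 1.73, adjusted p = 0.41).

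Lag3 and Nt5e turned on mouse 5. Lag3 had a log2 fold change of 1.81 (SE 0.77, adjusted p = 0.11) and passed without mouse 5 (2.69, adjusted p = 3.0e-05) and by DESeq2 (1.75, adjusted p = 0.039). Nt5e had one of 0.75 (SE 0.71, adjusted p = 0.47) and also passed without mouse 5 (1.49, adjusted p = 0.010). In both cases the other 4 mice had more at day 6. Ctla4 (-1.47, SE 0.81), Pdcd1lg2 (-0.76, SE 0.80) and Entpd1 (-0.71, SE 0.47) did not pass.

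Of 13 other inhibitory receptors tested between the days, 2 rose and 1 fell. Among all 15819 genes tested, 2152 were called higher and 590 lower. Tigit (log2 fold change 2.45, SE 0.55, adjusted p = 0.0055) and Cd200r1 (5.51, SE 1.39, adjusted p = 0.011) were higher at day 6, and Cd5 was lower (-1.56, SE 0.49, adjusted p = 0.034). Among 11 ligands, Lgals3 was higher (4.34, SE 0.76, adjusted p = 0.0012). Of 18 signalling and protein partners, Ap2m1 was higher (3.48, SE 1.04, adjusted p = 0.027) and Dgkz lower (-1.81, SE 0.51, adjusted p = 0.019). None of 21 purinergic genes and none of 7 ILC2 markers passed by edgeR, with 5 and 2 at an unadjusted p under 0.05 and 3 and 1 called by DESeq2.

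Of 17 genes at offset positions tested between the days in vehicle, 3 were called, namely Mug-ps1, Gpr162 and Gm28229, all higher at day 6. The members Pdcd1lg2 and Entpd1 were among the 17. Gm28229 came only from the 8 Mb window of Nt5e, whose offset was not stable. Mug-ps1 went from 28.4 to 199 CPM at day 2 to 809 to 2327 CPM at day 6 (log2 fold change 3.93, SE 0.99, adjusted p = 0.011), with no overlap and more in 5 of 5 mice. Gpr162 rose too (3.60, SE 0.77, adjusted p = 0.0045). Of the others at the offsets of Klrg1 and Lag3, P3h3 (-1.64, SE 0.84, adjusted p = 0.19), Phc1 (-1.42, SE 0.49, adjusted p = 0.053) and Cops7a (0.37, SE 0.57, adjusted p = 0.67) did not pass. Markers of other cells that were higher at day 6 were Klrb1c, Cd68, Epx and Sftpc, each the only higher gene of its list, and Col1a1 was lower. Their part in the members' values was not tested.

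Over the 20 cultured libraries, the levels of 3242 genes with a mean of at least 50 counts were set beside that of Cd274. The 2 most like it were Ahnak2 on chromosome 12, with Spearman's rho 0.998, and Sncb on chromosome 13, with rho 0.986. Over the 10 libraries of day 6 alone these were 1 and 0.988. The libraries share mice, treatments and days, so the values are descriptions. Ahnak2 and Sncb had 0 counts in all 3 naive C57BL/6J libraries, in which Cd274 had 67 to 286.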

How the data were processed

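The authors trimmed reads with fastp, assessed them with FastQC, aligned C57BL/6J reads to mm10 and CC030 reads to an mm9-based pseudogenome with STAR, converted the latter to mm10 coordinates with lapels, and counted reads per gene with HTSeq. The deposited values are these raw counts, from libraries made with the SMART-Seq v4 kit. For the gene annotation, the name is not given in the sources. Symbols, positions and exon lengths came from GENCODE vM21 on GRCm38, in which 55141 of 55401 identifiers were found. HTSeq's summary rows were left out of all tests.

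Counts were filtered by filterByExpr (minimum count 10, total 15), scaled by TMM and tested with edgeR 4.0.16 in R 4.3.3 by the robust quasi-likelihood F test, with Benjamini-Hochberg adjustment at 0.05. Mouse was a block in cultured cells, in which cells of the same 5 mice were split between groups per the labels. Naive replicates were separate mice, sorted separately. Single genes were also compared by exact sign permutation of log2(CPM + 0.5). Levels within a group were scaled by TMM over the 3 naive libraries of a strain or over the 20 cultured ones, and not compared between experiments. Position profiles used log2(CPM per kb + 0.5), offsets in steps of 1000 bp, refined by 100 bp.

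The members and gene lists were chosen with earlier results of these data known. Named genes were all members, in each comparison up to 4 called genes per list, by smallest p, genes at offset positions, and the 2 genes most like a member with at least 10 counts in all 20 cultured libraries. Members of lists given with their C57BL/6J levels, and Tigit in the position check, were chosen after values were seen. On data simulated from these libraries, 4-fold changes were called in 0% of altered genes between the strains (35551 genes), 89% at day 6 (9421 genes), 21% at day 2 (20865 genes) and 25% between the days (15819 genes). For 16-fold changes these were 34%, 100%, 93% and 90%. The simulation altered a small part of the genes and gave every gene the same spread. Between the strains 22798 genes were called higher and 4324 lower in the data, so the simulated 0% does not describe that test. Alternatives were DESeq2 1.42.0, its size factors, other filters, the block added or removed, each replicate left out, and, added after seeing the data, leaving out mice 4 and 5. For levels in C57BL/6J they were library totals, TMM over 6 libraries and the longest transcript. Python 3.11.15 with scipy 1.17.1 was used for the rest. A result for 1 listed transcription factor is not reported here.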

Additional observations from a re-analysis of the deposited data

Results flagged for a closer look

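In groups of 5 libraries, 1 value stood far from the other 4 by Dixon's criterion at 9 of 31 member and group pairs with at least 10 counts in a library. Chance gives about 1 in 20 for independent values from a normal distribution. These CPM were not transformed and the pairs share libraries, so that rate does not apply here. Vehicle of mouse 5 at day 2 accounted for 5 of them. It held 103.9 CPM of Pdcd1 against 2.21 to 10.3 in the other mice, 160.8 of Lag3 against 9.22 to 16.6, 1829 of Cd274 against 7.37 to 105, 17.98 of Pdcd1lg2 against 5.60 to 7.01, and 285.6 of Nt5e against 19.5 to 60.0. AR420626 of mouse 5 at day 2 held 54.88 CPM of Lag3 against 3.06 to 10.1. Vehicle of mouse 4 at day 6 held 3071 CPM of Cd274 against 483 to 1134, and 160.4 of Nt5e against 51.6 to 81.7. AR420626 of mouse 1 at day 6 held 16.63 CPM of Ctla4 against 6.09 to 7.66, from 14 counts against 5 to 10.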

How the results depend on the processing

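Cd274 at day 6 kept its call under all 10 alternatives, with log2 fold changes of -0.96 to -1.40. Of the members' values under the alternatives, 76 of 93 kept direction and side of the threshold between the strains, 29 of 30 at day 6, 59 of 61 at day 2, 64 of 71 for the difference between the days and 49 of 61 for vehicle. The causes of the changes below were not tested, except where fewer genes or libraries entered. Depth limits most members in CC030, in which 3 counts stand for 1.09 to 4.596 CPM.

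Between the strains, Nt5e was -0.078 with no filter, and with at least 10 counts in every library Cd274 was 0.13, with 3573 genes and 1 member called. With each replicate left out, Ctla4 was -0.18 to 8.77 and Nt5e -0.39 to 0.19. The naive replicates share only a number, with correlations of deviations of 0.0088, 0.012 and -0.014 over 7223 genes for replicates 1, 2 and 3. With the replicate block, Nt5e was -0.057, 26602 genes and 6 members were called, Entpd1 among them (6.93, adjusted p = 0.0053).

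With AR420626 at day 6, leaving out each replicate gave 604 to 1221 genes and 1 to 2 members, against 1078 and 1. At day 2, DESeq2 and no filter each gave 15 genes against 0. Cd274 was -1.53 to 0.19 with each replicate left out, and Pdcd1lg2 was 0.17 without mice 4 and 5.

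For the difference between the days, against 12 genes, DESeq2 gave 75, no filter 20, at least 10 counts 6, no replicate block 2, mice 4 and 5 left out 59, and each replicate left out 0 to 33. With each replicate left out, Lag3 was -0.72 to 0.052, Cd274 -1.25 to 0.83, Pdcd1lg2 -0.49 to 1.79 and Entpd1 -0.28 to 0.65. Without mice 4 and 5, Cd274 was 0.68, Pdcd1lg2 -0.89 and Entpd1 -0.54.

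For vehicle between the days, against 1 member, DESeq2 called 2, no replicate block 0, mice 4 and 5 left out 3, and each replicate left out 0 to 3. Genes were 994 to 5376 with each replicate left out and 4337 without mice 4 and 5, against 2742. Nt5e was -0.47 with at least 10 counts, and Pdcd1lg2 0.22 without mice 4 and 5. In C57BL/6J, TMM over all 6 naive libraries gave mean CPM per kb of 327.2 for Klrg1, 135.8 for Pdcd1lg2 and 4.55 for Nt5e, and the longest transcript gave 6.28 for Nt5e.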
